A study of Mus musculus with 12 samples.

Results

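The genes described are 7 liver genes of the mouse that male-type, pulsatile growth hormone holds down: the sulfotransferases Sult2a2 and Sult3a1, the cytochrome P450 genes Cyp2a4, Cyp2b9 and Cyp2b13, the oxidase gene Hao2 and the transcription factor gene Cux2. They were taken by name, and every probe carrying one of these names was used, which gave 9 of the 55681 probes and 7 of the 34741 named genes or unnamed targets on the arrays. A gene entered the fit of 18101 genes when a probe of it was well above background, by the scanner software's call, on every array of some group, and 5 of the 7 did. Sult3a1 and Cux2 did not, and only their signals are given. Of the 5 tested genes, 3 (Sult2a2, Cyp2b13 and Hao2) passed that filter through tumours alone, so a difference was built into their passing, while Cyp2a4 and Cyp2b9 were well above background on all 12 arrays.

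RNA came from livers of C3H/HeN males of an F2 generation at about 74 weeks of age. The groups, of 3 arrays each, were tumours, non-tumour liver and normal liver from the arsenite line, and non-tumour liver from the control line; normal liver and tumours of the control line were not analysed here. On gestation days 8 to 18, F0 dams of the arsenite line drank sodium arsenite at 85 ppm and those of the control line plain tap water. Neither F1 nor F2 mice of either line received arsenite, and F1 males and females were paired at 10 weeks. The labels do not say how normal liver was told from non-tumour liver, or whether a tumour and a non-tumour sample came from the same mouse, so p-values measure the spread between these samples. The aim of the design, as its title gives it, was to compare tumour, non-tumour and normal liver of F2 males descended from exposed dams.

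The pituitary of male mice releases growth hormone in pulses, whereas females keep a more even level. Each pulse binds the growth hormone receptor on hepatocytes, activates the kinase JAK2 and sends the transcription factor STAT5b to the nucleus in waves. Pulses keep genes such as Hsd3b5 and Slco1a1 high in males and keep another set, to which the 7 genes belong, low, and that set is high in female liver and in males that lack STAT5b or the pituitary signal. BCL6, higher in male liver, and CUX2, higher in female liver, are repressors that act in the same network.

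Signals are log2 values relative to the 75th percentile of the array, so 0 is the brightness of that percentile. The percentile lay between 153 and 245 intensity units on the 12 arrays, and 40.5% to 46.6% of spots were well above background. The number of arrays limits the precision. All 7 hepatocyte markers with a probe were well above background on all 12 arrays. Of sex-linked genes, Xist was not above background on any array and Ddx3y lay between 2.11 and 2.61. Kdm5d, named after its values were seen, was also not above background on any array. Tumours had their own slide and normal liver another, so slide and group cannot be told apart in any comparison between groups of the arsenite line; only the 2 non-tumour groups shared a slide. Array 3 of arsenite-line non-tumour liver stood apart in the genes of interest. Values without it are given where leaving it out changed a call, a count or a sign of a result reported here. Because it was singled out by values of these genes, leaving it out raises the tumour difference of any gene high on it. Differences, counts and p-values without it are therefore a description.

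Sequences show how close these genes are to their neighbours. Cyp2b9 and Cyp2b13 are neighbours on chromosome 7, and the 250 bases before their starts differ at 2 positions, T48C and C104T, counted from 1 at the 5′ end with the Cyp2b9 base first. In the lines that follow, from the RefSeq promoter table (GRCm38.p6, Cyp2b9 at chr7:26173159-26173408 and Cyp2b13 at chr7:26061245-26061494, plus strand), capitals mark those positions.
Cyp2b9: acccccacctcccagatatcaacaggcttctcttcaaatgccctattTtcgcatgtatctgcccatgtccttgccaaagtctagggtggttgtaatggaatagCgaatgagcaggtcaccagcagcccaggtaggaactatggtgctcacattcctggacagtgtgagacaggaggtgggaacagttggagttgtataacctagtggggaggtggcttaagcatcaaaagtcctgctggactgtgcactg
Cyp2b13: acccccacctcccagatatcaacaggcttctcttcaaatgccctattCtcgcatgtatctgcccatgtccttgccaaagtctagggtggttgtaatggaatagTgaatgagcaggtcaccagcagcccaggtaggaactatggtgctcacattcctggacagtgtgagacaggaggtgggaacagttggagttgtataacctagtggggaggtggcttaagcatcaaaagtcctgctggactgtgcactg
The array probes of this pair, in contrast, matched at 24 of 60 bases in their best ungapped alignment, so the probes differ from each other. Whether either probe also binds the other gene's transcript was not tested. Cyp2b10, the phenobarbital-inducible relative next to them, matched Cyp2b9 at 50.6% of the positions in the best ungapped alignment of the windows. The reference strain is not C3H/HeN, so these bases may differ in the mice used.

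Cyp2a4 is the opposite case. Its neighbour Cyp2a5, a coumarin hydroxylase, matches it at 98.4% of the aligned bases before the start, and the 4 bases that differ (C19T, T131C, G161A and G205T, with the Cyp2a4 base first) are in capitals here (GRCm38.p6, chr7:26306942-26307191, plus strand, RefSeq).
Cyp2a4: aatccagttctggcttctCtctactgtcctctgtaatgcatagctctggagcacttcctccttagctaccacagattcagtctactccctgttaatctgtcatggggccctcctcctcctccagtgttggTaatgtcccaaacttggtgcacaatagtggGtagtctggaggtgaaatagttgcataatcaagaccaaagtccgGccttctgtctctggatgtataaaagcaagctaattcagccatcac
Cyp2a5 had no probe under its name. An unnamed probe at chr7:27737339-27737398 (mm9) matched the brighter Cyp2a4 probe at 52 of 56 overlapping bases. The gene of that unnamed probe is not given. Signals under the name Cyp2a4 may include Cyp2a5, but no Cyp2a5 transcript was compared with the probes, so this was not tested. The Sult2a2 probe, likewise, matched the probe of its neighbour Sult2a1 at 54 of 59 overlapping bases, and the signals of that pair may not be separate. The designed probes of Cyp2b9 (chr7:26983484-26983543) and of the dimmer Cyp2a4 signal (annotated over chr7:27098659-27099724, both mm9, plus strand) are shown because these genes were measured on every array; each has an open reading frame.
Cyp2b9 probe: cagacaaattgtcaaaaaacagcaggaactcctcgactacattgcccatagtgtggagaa
Cyp2a4 probe: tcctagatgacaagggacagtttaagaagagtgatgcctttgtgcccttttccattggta

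The promoter table held 6 of the 7 genes, in 7 windows. The letters TTCNNNGAA, the core that STAT5 proteins bind, occurred on either strand in 1 of these 7 windows, that of Sult3a1, and in 7.02% of the 32851 windows of the table. ATCAAT, a core bound by CUX and HNF6 proteins, which does not overlap the first by its letters, was also in the Sult3a1 window alone, against 6.72% of all windows. The same outer letters with 4 bases between them were in 0 of the 7 windows and in 5.85% of all. No match says only that these letters are not in the 250 bases searched.

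In tumours, the genes that could be measured were high. Against non-tumour liver of the arsenite line, 4 of the 5 tested genes were called higher (limma, adjusted p under 0.05 over all genes), where 17.1% of all tested genes were, and against normal liver 5 of 5 were, where 17.2% were. No value of a tumour overlapped with non-tumour liver for 3 of the 5 (20.5% of all genes) or with normal liver for 5 of 5 (21.1% of all genes). Without non-tumour array 3, 5 of 5 were called higher than non-tumour liver (15.2% of all genes) and 5 of 5 did not overlap (23.1%). Because 3 of the 5 passed the filter through tumours alone, and array 3 was left out for its values of these genes, these counts are a description. The same tumour arrays enter both comparisons, which are therefore not independent. No member was called lower. In bulk tissue, fewer cells of a type and less RNA per cell cannot be told apart.

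**Figure D1:**
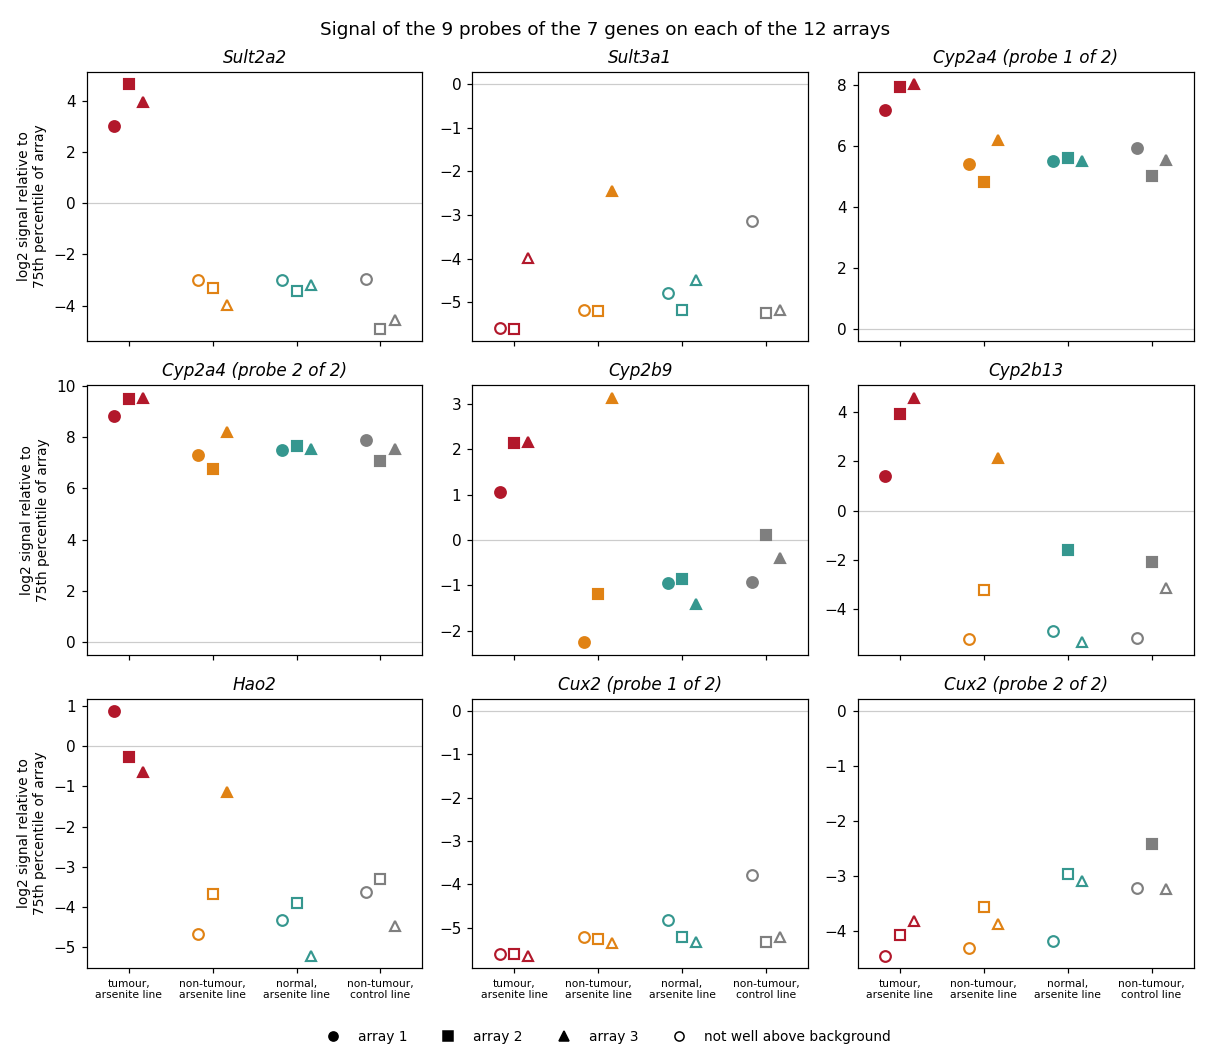
Log2 signal relative to the 75th percentile of the array (y axis) of the 9 probes on 12 arrays in 4 groups (x axis); each point is an array, its shape gives the array number and open points were not well above background. Sult2a2 was above background on the 3 tumour arrays alone, and array 3 of arsenite-line non-tumour liver was high for Cyp2b9, Cyp2b13 and Hao2 but not for Sult2a2.

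Sult2a2, a sulfotransferase that conjugates bile acids and hydroxysteroids (probe at chr7:14364926-14364985, mm9), read 3.00, 4.65 and 3.94 in tumours, against -2.99, -3.31 and -3.97 in arsenite-line non-tumour liver. It read -3.02, -3.42 and -3.21 in arsenite-line normal liver and -2.98, -4.91 and -4.57 in control-line non-tumour liver. Only the tumours were well above background. Sult2a2 was at least 130.3-fold higher in tumours than in non-tumour liver (adjusted p = 2.50e-06, limma) and at least 130.2-fold higher than in normal liver (adjusted p = 3.40e-06). These folds are lower bounds: a signal below background was replaced, where lower, by the lowest well-above-background signal of its array. The adjusted p-values, here and beside later folds of this kind, belong to the limma differences fitted to the signals as read. For Sult2a2 those differences were 7.29 and 7.08 (log2).

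Sult3a1, a sulfotransferase that acts on amines and lies on chromosome 10, showed no such signal. It read -5.59, -5.61 and -3.98 in tumours, -5.17, -5.20 and -2.44 in arsenite-line non-tumour liver, -4.78, -5.18 and -4.50 in arsenite-line normal liver and -3.14, -5.23 and -5.18 in control-line non-tumour liver. The value of -2.44, on array 3 of arsenite-line non-tumour liver, was the single one well above background.

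Cyp2b9, a P450 of the phenobarbital-responsive 2B subfamily, read 1.05, 2.14 and 2.16 in tumours, against -2.26, -1.20 and 3.14 in arsenite-line non-tumour liver. It read -0.94, -0.85 and -1.42 in arsenite-line normal liver and -0.92, 0.11 and -0.39 in control-line non-tumour liver. Its highest signal of all 12 was thus array 3 of arsenite-line non-tumour liver, and tumours and non-tumour liver overlapped. The difference of tumours from non-tumour liver was 1.89 ± 1.08 (log2, SE, adjusted p = 0.174) and did not pass, and without that array it was 3.51 ± 0.44 (adjusted p = 0.000235). Against normal liver Cyp2b9 rose by 2.85 ± 1.08 (adjusted p = 0.0495), a call that was lost under 11 of 24 alternatives (highest adjusted p 0.117). It was also lost in a limma fit of every kept probe on its own (adjusted p = 0.0508). Array 3 of non-tumour liver enters this comparison only through the pooled spread. Without that array the adjusted p was 0.00032.

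Cyp2b13, the neighbour of Cyp2b9 with the near-identical promoter (probe at chr7:26880905-26880964, mm9), read 1.38, 3.94 and 4.59 in tumours, against -5.23, -3.22 and 2.15 in arsenite-line non-tumour liver. It read -4.88, -1.60 and -5.36 in arsenite-line normal liver and -5.16, -2.07 and -3.16 in control-line non-tumour liver. Outside tumours it was well above background on 1 array of each group, and the non-tumour array 3 lay above the lowest tumour. Cyp2b13 rose in tumours by 5.40 ± 1.77 against non-tumour liver (adjusted p = 0.028) and by 7.25 ± 1.77 against normal liver (adjusted p = 0.00659), on values of which most outside tumours were not well above background. The first call was lost under 6 of 23 alternatives (highest adjusted p 0.106): leaving out non-tumour array 1 or 2, leaving out tumour array 2 or 3, fitting 6 arrays alone, or applying no filter. In a limma fit of every kept probe on its own it held (adjusted p = 0.0289). Without non-tumour array 3 the difference was 7.53 ± 1.38 (adjusted p = 0.00198).

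Cyp2a4, a steroid hydroxylase, was the brightest of the genes. Its brighter probe read 8.82, 9.48 and 9.54 in tumours, against 7.30, 6.75 and 8.19 in arsenite-line non-tumour liver. It read 7.50, 7.65 and 7.54 in arsenite-line normal liver and 7.90, 7.06 and 7.53 in control-line non-tumour liver. All tumours lay above all other arrays. The gene rose 3.65-fold in tumours against non-tumour liver (log2 1.87 ± 0.34, adjusted p = 0.00123) and 3.28-fold against normal liver (log2 1.71 ± 0.34, adjusted p = 0.0021). The second probe gave 2.25 ± 0.35 (adjusted p = 0.000481) and 2.17 ± 0.35 (adjusted p = 0.000612) in the fit of single probes. The brighter probe differed from non-tumour liver by 2.26 ± 0.28 (adjusted p = 0.000249) when non-tumour array 3 was left out. Both calls held under each of the alternatives run.

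Hao2, a peroxisomal oxidase of hydroxy acids on chromosome 3 (probe at chr3:98678664-98678723, mm9), read 0.87, -0.27 and -0.64 in tumours, against -4.66, -3.67 and -1.14 in arsenite-line non-tumour liver. It read -4.31, -3.91 and -5.21 in arsenite-line normal liver and -3.63, -3.30 and -4.48 in control-line non-tumour liver. The tumours did not overlap with any other group. The array carries 10 spots of this probe: all 10 were well above background on each tumour array and on non-tumour array 3, and none of 10 on each of the other 8 arrays. The SD between spots was 0.0873 to 0.0988 on the tumour arrays, 0.228 on non-tumour array 3 and up to 0.647 on the others, which is technical spread within an array and not spread between livers. Hao2 rose by 3.14 ± 0.79 against non-tumour liver (adjusted p = 0.00753), though with the replicate number as a block in a fit of these 6 arrays the adjusted p was 0.0795. Without non-tumour array 3 the difference was 4.15 ± 0.55 (adjusted p = 0.000341). Against normal liver Hao2 was at least 8.89-fold higher (adjusted p = 0.000966).

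Cux2, a homeodomain repressor, had 2 probes on chromosome 5. On the brighter of them it read -4.45, -4.08 and -3.82 in tumours, -4.31, -3.56 and -3.87 in arsenite-line non-tumour liver, -4.19, -2.96 and -3.09 in arsenite-line normal liver and -3.22, -2.41 and -3.23 in control-line non-tumour liver. The value of -2.41 was the single one well above background, and on the other probe there was none. No level of Cux2 can thus be compared between groups. The brightest probe of its relative Cux1 was well above background on all 12 arrays. It differed by -0.41 ± 0.15 between tumours and non-tumour liver (adjusted p = 0.051), or by -0.54 ± 0.15 without non-tumour array 3 (adjusted p = 0.0186). Another Cux1 probe, above background on 6 arrays, read -1.12, -3.00 and -3.03 in tumours, against -3.26, -3.21 and -2.92 in non-tumour liver. A further Cux1 probe was not above background on any array.

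**Figure D2:**
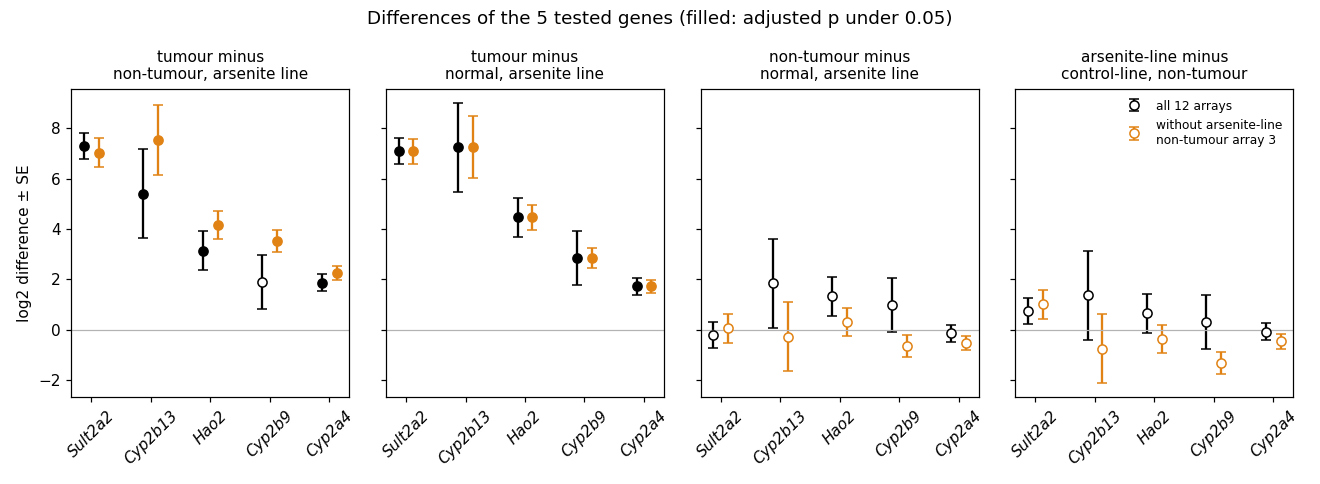
Log2 differences ± SE (y axis) of the 5 tested genes (x axis) in the 4 comparisons (panels), with all 12 arrays (black) and without array 3 of arsenite-line non-tumour liver (orange); filled points have an adjusted p under 0.05. The values of Sult2a2, Cyp2b13 and Hao2 rest in part on signals below background, those of Sult2a2 wholly so in the comparisons without tumours, and the difference of Cyp2b9 from non-tumour liver was 1.89 with that array and 3.51 without it.

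Outside tumours the members were not called. Non-tumour against normal liver of the arsenite line gave 0 of 5 members called, where 0% of all genes were called by limma and 1238 of 18101 had an unadjusted p under 0.05; of the members, 0 of 5 had. The groups were apart, with non-tumour higher, for 0 of 5 members and for 7.88% of all genes. Sult2a2 was below background in both groups. Differences of the other 4 ran between -0.15 ± 0.34 for Cyp2a4 and 1.85 ± 1.77 for Cyp2b13. Without non-tumour array 3, that of Cyp2b13 was -0.28 ± 1.38 and that of Cyp2b9, 0.96 ± 1.08 with all arrays, was -0.66 ± 0.44. Arsenite-line against control-line non-tumour liver, the comparison that lies within 1 slide, also gave 0 of 5 members called, where 0.00552% of all genes were (1 gene, Sh3bp4, which the rule for names would not have picked) and 1020 had an unadjusted p under 0.05; of the members, again 0 of 5 had. The groups were apart, with the arsenite line higher, for 0 of 5 members and for 3.63% of all genes. Sult2a2 was again below background in both groups. Here Cyp2b13 differed by 1.36 ± 1.77, Hao2 by 0.65 ± 0.79, Cyp2b9 by 0.29 ± 1.08 and Cyp2a4 by -0.08 ± 0.34 (adjusted p = 0.9999 for each, limma). With array 3 left out, Cyp2b9 differed by -1.33 ± 0.44 (adjusted p = 0.763) and Cyp2b13 by -0.76 ± 1.38 (adjusted p = 0.9999), both with the sign turned. Hao2 was then not above background on any array of either group, so no difference of it can be read.

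Array 3 of arsenite-line non-tumour liver shared part of the tumour pattern and also differed from tumours. Among the 9 arrays outside tumours it was the highest for 4 of the 5 tested members and for 8 of 12 other female-biased genes. It was the lowest for 2 of those 12 and for 12 of 14 male-biased genes. The share of all genes for which it was the highest or the lowest was not counted. Of all 18101 genes, 14 lay at least 2 log2 units above the other 8 arrays on it, and 3 of these 14 were members; on the other 8 arrays outside tumours such genes numbered 1 to 12, with no member among them. Cyp2b10, which was not called in either tumour comparison, read 7.35 on it, above all 3 tumours at 4.62, 5.62 and 5.70. A1bg, a female-predominant serum protein gene, was above background on that array alone, at -2.77, and thus on no tumour. Hsd3b5, a male-predominant hydroxysteroid dehydrogenase, read 5.29 on it, against 7.66 and 7.69 on the other arrays of its group. Sult2a2 at -3.97 and Sult2a1 at -5.27 stayed below background on it, unlike in tumours. On this array the summed hepatocyte markers were 6239, against 6655 to 7808 on the other 8 arrays outside tumours (in units of the 75th percentile), the Kupffer cell and macrophage markers 160.0, against 93.5 to 159.3, and the T and NK cell markers 30.8, against 46.2 to 69.2. The proliferation markers summed to 1.89 on it, against 0.73 to 1.63 on those 8 arrays and 6.49 to 27.79 in tumours. Of these markers, Top2a, Ccnb1 and Cdk1 were not above background on it. The part of these lists in the pattern was not tested.

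**Figure D3:**
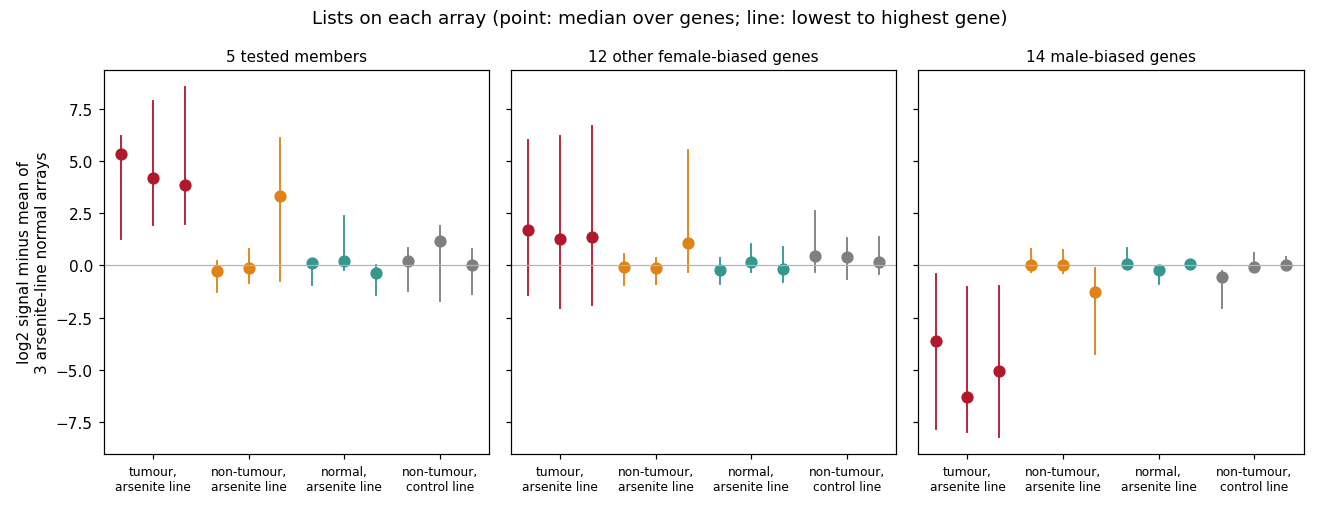
Median (point) and lowest to highest gene (line) of the log2 signal minus the mean of the 3 arsenite-line normal arrays (y axis), for each of the 12 arrays by group (x axis), over 5 members, 12 other female-biased and 14 male-biased genes (panels). The medians of the members were 3.83 to 5.33 in tumours and 3.34 on array 3 of arsenite-line non-tumour liver, and the male-biased medians were -6.30 to -3.64 in tumours and -1.28 on that array.

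Control-line non-tumour array 1 shared a smaller part of it. Hsd3b5 read 5.45 there, but no member had its highest value outside tumours on it except Sult2a2, which was below background, and male-biased genes were at a median of -0.57 relative to normal liver. Leaving this array out changed no member's call between tumours and non-tumour liver, and lost that of Cyp2b9 against normal liver.

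Other genes with the same regulation were counted beside the members. Of 12 tested female-biased genes outside the 7, tumours had 5 higher and 1 lower than non-tumour liver (median log2 difference 0.81) and 6 higher and 1 lower than normal liver (median 1.43), against a median of -0.13 and -0.15 over all genes. Of the 5 called higher than non-tumour liver, 3 (Abcd2, Sult2a1 and Slc22a27) passed the filter through tumours alone, so a difference was built into their passing too. Abcd2, a peroxisomal transporter of fatty acids, was at least 8.00-fold higher in tumours than in non-tumour liver (adjusted p = 1.4e-08) and Sult2a1 at least 10.4-fold (adjusted p = 2.6e-06). Because the probes of Sult2a1 and Sult2a2 are alike, the signal of Sult2a1 may not be separate from that of this member. Tox, a nuclear factor, rose by 2.46 ± 0.51, and Prlr, the prolactin receptor, fell by 2.29 ± 0.27 although it is female-biased. Cyp17a1 (0.09 ± 0.18, adjusted p = 0.722) and Cyp2b10 (0.08 ± 0.76, adjusted p = 0.94) were not called, and A1bg was not above background in any tumour. Without non-tumour array 3, 7 of 12 were higher and 1 lower, beside 15.2% of all genes called higher.

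Male-biased genes went down almost throughout. Tumours had 13 of 14 lower than non-tumour liver and 13 of 14 lower than normal liver (medians -4.98 and -5.38), where 30% and 31% of all genes were called lower. Hsd3b5 read 1.92, -0.51 and -0.71 in tumours, against 7.66, 7.69 and 5.29 in non-tumour liver, and fell by 6.65 ± 0.86, or by 7.44 ± 0.83 without non-tumour array 3. Slco1a1, an organic anion transporter, fell by 6.23 ± 0.57, with 2 of 3 tumours above background. Ugt2b1, a glucuronosyltransferase, fell by 3.93 ± 0.29, Ugt2b38 by 1.48 ± 0.13 and the urinary protein gene Mup21 by 4.94 ± 0.46. With the replicate number as a block, 12 of 14 were lower than non-tumour liver in 12 arrays and 11 of 14 in 6. On its brightest probe Mup20 (-1.28 ± 0.44, adjusted p = 0.036) had a blocked adjusted p of 0.0607 in 12 arrays and 0.135 in 6. The other Mup20 probe was apart, at 5.28, 5.08 and 6.88 in tumours against 9.32, 9.25 and 9.01 in non-tumour liver. C6 (-1.94 ± 0.58, adjusted p = 0.0182) had a blocked adjusted p of 0.0967 in 6 arrays. Both genes are named after their values were seen. Without non-tumour array 3, 14 of 14 were lower than non-tumour liver, where 27.5% of all genes were.

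Of 24 genes of growth hormone signalling and liver transcription, tumours had 2 higher and 8 lower than non-tumour liver, beside 17.1% of all genes higher and 30% lower. These counts were 1 and 9 without non-tumour array 3, beside 15.2% and 27.5%. Ghr, the receptor itself, read 4.33, 3.75 and 4.15 in tumours, against 6.73, 6.59 and 6.56 in non-tumour liver, and fell by 2.55 ± 0.14 (adjusted p = 4.9e-07). Igf1, the main secreted product of the pathway, fell by 2.17 ± 0.28, Igfals, which carries IGF1 in blood, by 4.08 ± 0.39 and Nr1i3, the receptor CAR that drives Cyp2b genes, by 3.31 ± 0.36. Stat5b fell by 0.80 ± 0.18 against non-tumour liver (adjusted p = 0.004), and its smaller difference from normal liver, -0.48 ± 0.18 (adjusted p = 0.0464), was called under 6 of 24 alternatives. Of the feedback genes, Socs1, named after its values were seen, was called higher than non-tumour liver, by 1.25 ± 0.46 (adjusted p = 0.0469), a call kept under 8 of 23 alternatives, and higher than normal liver, by 1.51 ± 0.46 (adjusted p = 0.0212), kept under 19 of 23; it passed the filter through tumours alone. Socs2 differed from non-tumour liver by -1.08 ± 0.57 (adjusted p = 0.147), Cish by -0.43 ± 0.85 and the repressor gene Bcl6 by -0.62 ± 0.999. The values of Bcl6 in tumours were 3.02, 1.04 and 4.64, so its spread within the group was wide.

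The Sult2a genes around Sult2a2 split by gene, a description chosen after their values were seen. From Sult2a2 to Sult2a7 the cluster spans chr7:14364926-15050573 (mm9). Sult2a1 read -0.84, 1.09 and -0.02 in tumours and Sult2a6 3.03, 4.48 and 3.86 on its brightest probe, while neither was above background on any other array. Sult2a6 was at least 136.8-fold higher in tumours than in non-tumour liver (adjusted p = 1.7e-07), and Sult2a3 at least 2.37-fold (adjusted p = 0.0005); both, like Sult2a1, passed the filter through tumours alone. At the far end, Sult2a8 read 2.86, 1.72 and 2.83 in tumours, against 7.73, 7.61 and 7.14 in non-tumour liver, and fell by 5.03 ± 0.28 (adjusted p = 5.1e-07). Sult2a7 was at least 24.3-fold lower in tumours (adjusted p = 1.8e-07) and above background on all 9 other arrays. Another Sult2a6 probe stayed below background on all 12 arrays, so the probes of that gene disagreed.

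**Figure D4:**
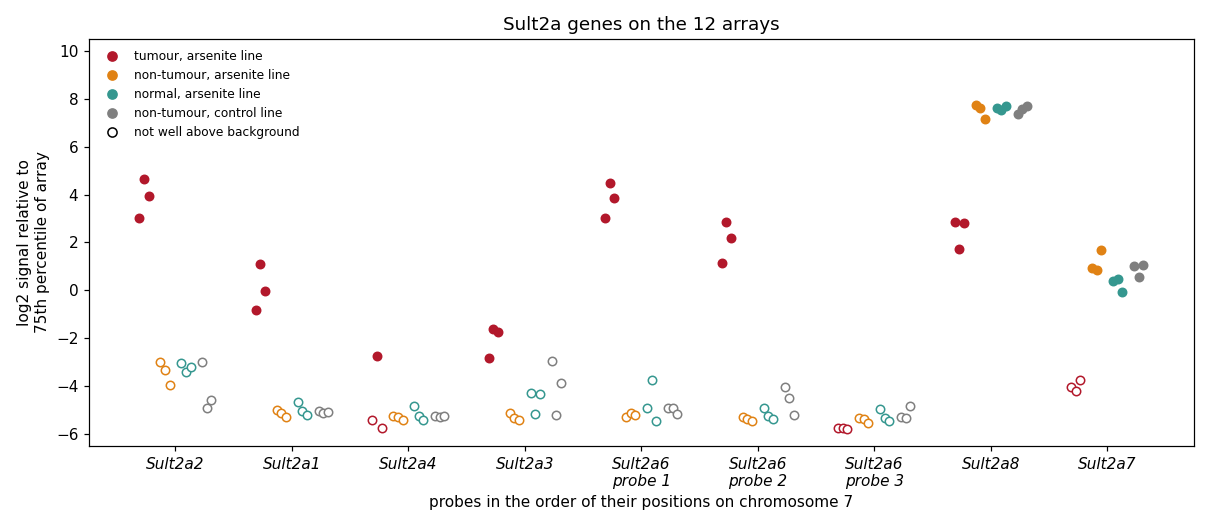
Log2 signal relative to the 75th percentile of the array (y axis) of 9 probes of 7 Sult2a genes in their order on chromosome 7 (x axis), 12 arrays coloured by group; open points were not well above background. Sult2a2, Sult2a1, Sult2a3 and Sult2a6 had tumours above background alone, while Sult2a8 and Sult2a7 were lower in tumours.

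Hao2 also sits beside genes that went the other way. Hsd3b5, Hsd3b2, Hsd3b3 and Hsd3b6 lie with it on chr3:98422576-98678723 (mm9), and each read lower on all 3 tumour arrays than on all 9 others; they are named after their values were seen. Hsd3b1, between them and Hao2, was above background on 2 of 3 tumour arrays and on none of the other 9. On chromosome 7, Cyp2a12, a relative of Cyp2a4, differed by -0.69 ± 0.27 from non-tumour liver (adjusted p = 0.059) and by -0.81 ± 0.27 from normal liver (adjusted p = 0.0303, lost under 9 of 24 alternatives). Cyp2b10, next to Cyp2b13, was not called in either comparison. Hao1, the liver relative of Hao2, differed by -0.54 ± 0.25 from non-tumour liver (adjusted p = 0.105), or by -0.84 ± 0.20 without non-tumour array 3 (adjusted p = 0.00767).

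The genes most like each member over the 12 arrays were found by the root mean square difference of centred log2 signals. For Sult2a2 they were Psrc1 (0.50), Prom2 (0.57) and Inava (0.64), each above background in the 3 tumours alone. For Cyp2a4 they were Arhgap17 (0.26), Git2 (0.26) and the unnamed probe that resembles it (0.28). For Cyp2b9 they were unnamed probes at chr7:26771212-26771271 (0.50) and chr7:26995895-26995954 (0.72, mm9), which flank Cyp2b13 and Cyp2b9, and Npc1l1 (0.77), and all of these were high on non-tumour array 3 as well. Cyp2b13 had no near match, with Slc22a27 at 1.74 the nearest, and Hao2 had Rad51ap1 (0.63), Rcan2 (0.67) and Npc1l1 (0.69). Where a member had signal on few arrays, likeness reflects those arrays. Cyp2a4 and its matches were above background on all 12 arrays. Likeness gives no test.

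Markers of other cell types and of proliferation also differed between tumours and non-tumour liver. All 6 proliferation markers were higher than in non-tumour liver, though 4 of the 6 passed the filter through tumours alone. Mki67, which did not, was higher by 3.67 ± 0.40. Of 8 Kupffer cell and macrophage markers 6 were lower, and their summed signal was 39.1 to 74.8 in tumours, against 119.3 to 160.0 in non-tumour liver. The summed stellate cell and fibroblast markers were 17.2 to 22.6 in tumours, against 65.4 to 71.4. A sum follows its brightest genes, and this list was split. Col1a1 (log2 difference 2.11) and Reln (1.08) were called higher in tumours, and Dcn (-2.05) and Lrat (-2.14) lower. Des, also called lower, was not above background in either group. These genes are named after their values were seen. The T and NK cell sum was 128.8 to 175.2 in tumours, against 30.8 to 58.1. Of the 4 tested genes of this list, only Cd4 (1.88) was called higher, and the median difference was 0.03. Nkg7 (-0.31) was called lower, a call kept under 19 of 24 alternatives and lost with the replicate number as a block in 6 arrays. Cd8a and Klrb1c were not above background on any array. B and plasma cell markers summed to 3.18 to 5.29, against 1.65 to 2.96, bile duct markers to 1.94 to 2.74, against 1.77 to 2.86, and endothelial markers to 55.0 to 75.04, against 93.4 to 113.4. The endothelial list was split too, with Stab2 (-1.02) and Clec4g (-0.82) called lower and Lyve1 (1.70) higher. With the replicate number as a block in 6 arrays, the adjusted p of Lyve1 was 0.0623 (limma). Hepatocyte markers summed to 5869 to 7054 in tumours, against 6239 to 6971. The part of other cell types in the members' differences was not tested.

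The balance of calls over all genes depended on the scaling, while calls of members did not. Of the genes called between tumours and non-tumour liver, 36.4% were higher in tumours. Quantile normalisation made that share 47.7%, and a percentile over probes detected on every array made it 53.4%, with the median of all genes at 0.03 in place of -0.13. Between tumours and normal liver the share was 35.7%, against 48.3%, 50.7% and, after a median shift, 62%, with medians of -0.04, -0.00 and 0.09 in place of -0.15. Under each of these scalings 4 and 5 members were called higher.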

How the data were processed

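RNA of 12 livers or tumours was hybridised to 1-colour Agilent arrays. The deposited scanner files give, per the file headers, a background-subtracted intensity for each spot, not scaled between arrays, with mm9 positions. The headers name scanner software 10.7.3.1 and the submitters' processing notes 12.0.3.1. A value table that the authors deposited holds a linear ratio of the processed signal to the 75th percentile over all spots of the array, as checked against the scanner files.

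Each log2 intensity was set relative to the 75th percentile over the array's 59305 spots outside controls, with spots of a probe averaged and outlier spots left out. A probe was kept when well above background on all 3 arrays of a group (24144 of 55681), and the brightest kept probe stood for its gene. Probes were named by accession (27235), symbol (3581) or synonym (565) through the RefSeq gene table, and 24300 kept the file's name. limma 3.58.1 (R 4.3.3) fitted all 12 arrays together, and Benjamini-Hochberg adjustment ran over 18101 genes, with calls at 0.05. The script was tested on simulated data. Python 3.11.15, pandas 2.3.3, numpy 2.4.6 and matplotlib 3.10.9 served for the rest.

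Members and lists were chosen with earlier results of these data known. Named genes are the members with every probe, the 3 genes nearest to each tested member, up to 4 called genes of smallest p per list and comparison, and a fixed set of growth hormone and relative genes; exceptions are marked. Alternatives changed the scaling, background, filter, probe rule, arrays fitted, block and weights. Replicate numbers equal the column on every slide. For tumours and non-tumour liver, deviations from the group means correlated at 0.15, 0.14 and 0.23 between equally numbered arrays and at -0.16 to -0.00 otherwise. Each was over 0.1, so the blocked fit is given beside a result where it changes a call; the other comparisons had a value under 0.1. Some listed genes are not reported here.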

Additional observations from a re-analysis of the deposited data

How the results depend on the processing

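Of the members, Sult2a2 and Cyp2a4 kept their calls in both tumour comparisons under every alternative run, and so did Cyp2b13 and Hao2 against normal liver. With probes required above background on all 12 arrays, 1 of 2 members was called against non-tumour liver and 2 of 2 against normal liver, since fewer members were tested. With no filter 14219 genes were called between tumours and normal liver. Leaving out 1 array gave 3 to 5 members against non-tumour liver and 4 to 5 against normal liver. With the replicate number as a block, 4 members were called against non-tumour liver in 12 arrays and 3 in 6, where Hao2 was lost, and no other call of a member changed.

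Non-tumour against normal liver gave 1 gene with a median shift, 1 with the filter on all 12 arrays, 5 with array weights, and 0 to 1 when 1 array was left out. The arsenite line against the control line gave 3 genes with a median shift, 0 with normexp, 6 with no filter, 0 with the filter on all 12 arrays, 4 in 6 arrays, 0 with the replicate block in those 6, 4 with array weights, and 0 to 6 when 1 array was left out. The cause was not tested. No member was called in either.

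Signs turned among uncalled differences. For non-tumour against normal liver, Sult2a2 was at 0.054 with quantile normalisation and 0.10 with a median shift, with both groups below background, and Cyp2a4 at 0.16 with that shift. For the arsenite line against the control line, Cyp2a4 was at 0.20 with a median shift and 0.017 with array weights, which put Cyp2b9 at -0.47 and Cyp2b13 at -0.033. Leaving out 1 array at a time, Cyp2b10 ranged from -0.68 to 1.14 between tumours and non-tumour liver. Between non-tumour and normal liver the ranges were -0.43 to 0.059 for Sult2a2, -0.54 to 0.18 for Cyp2a4, -0.66 to 2.04 for Cyp2b9 and -0.28 to 3.41 for Cyp2b13. Between the lines they were -0.47 to 0.25 for Cyp2a4, -1.33 to 1.37 for Cyp2b9, -0.76 to 2.93 for Cyp2b13 and -0.36 to 1.397 for Hao2, with Sult2a2 and, without array 3, Hao2 below background in both groups. A slide block was not run, because slide and group could not be separated in the fit. Signals below background give only bounds.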
